A study of Mus musculus with 18 samples.

Results

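Acly and 6 genes that supply or carry its substrates and products (Acss1, Acss2, Slc25a1, Cs, Aco1 and Crat) were followed through natural killer (NK) cells with and without Acly. The 7 genes were taken by their symbol in the deposited gene count table, which holds 55487 gene identifiers. RNA was sequenced from NK cells of mouse spleen that had been sorted for a yellow fluorescent reporter, in 18 libraries of 6 groups with 3 replicates each. Knock-out cells carried Acly fl/fl, Rosa YFP/YFP and Ncr1 CRE-ERT2, and wild-type cells carried the same reporter and the same Cre with no floxed Acly. The Cre is a tamoxifen-inducible one expressed from Ncr1, a gene of NK cells and of some related innate lymphoid cells. Mice of both genotypes had a tamoxifen diet for 48 h, and the cells were sorted 5 days after its withdrawal, so the wild type carries the drug and the recombinase too. Each genotype was profiled as fresh cells, as cells kept for 72 h in IL-15 at 100 ng/ml (labelled HD15, called primed here), and as primed cells that were washed and then stimulated for 6 h on plate-bound NKG2D reagent at 20 ug/ml. NKG2D is an activating receptor of NK cells, and IL-15 is the cytokine that sustains them. No group held primed cells that were washed and kept for 6 h without the reagent. The wash, the plate and the added time thus cannot be told apart from NKG2D in the step from primed to stimulated cells. Changes with NKG2D below mean that whole step.

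Acetyl-CoA does not cross the inner mitochondrial membrane. It leaves mitochondria as citrate, which is made by citrate synthase (Cs) and exported by the citrate carrier (Slc25a1), and ATP-citrate lyase (Acly) splits the citrate in the cytosol and nucleus into acetyl-CoA and oxaloacetate. The acetyl-CoA feeds fatty acid and sterol synthesis and the acetylation of histones and other proteins. Acss2 makes acetyl-CoA from acetate in the same compartment and is the best known alternative source, whereas Acss1 does so inside mitochondria. Crat moves acetyl groups between CoA and carnitine, mainly in mitochondria, and Aco1 is the cytosolic aconitase, which turns citrate into isocitrate and, without its iron-sulfur cluster, binds RNA as an iron regulator. Of the 7 proteins, Acly and Acss2 are thus the enzymes that make cytosolic acetyl-CoA directly.

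The libraries held from 14772350 to 34367582 reads, and levels are given as CPM (reads scaled to library size, with TMM factors). All 10 NK markers of a fixed list, Ncr1 and Klrb1c among them, were above 1 CPM in every group. All 5 markers of type 1 innate lymphoid cells (ILC1) were above 1 CPM in every group too. These summed to between 83.3 and 139.9 CPM in fresh knock-out and 201.6, 46.6 and 45.7 CPM in fresh wild type. Sums were 144.2 to 177 CPM in primed knock-out and 103.2 to 240.6 CPM in primed wild type. They were 230.2 to 277.2 CPM in stimulated knock-out and 180.3 to 371.5 CPM in stimulated wild type. The part of ILC1 in the results was not tested. B-cell markers, of which 2 of 5 were above 1 CPM in each group and Ighm ranged from 82.1 to 618.6 CPM over the libraries, summed to between 281.1 and 322.7 CPM in fresh knock-out and between 233.6 and 239.3 CPM in fresh wild-type libraries. They summed to between 82.4 and 109.8 CPM in primed knock-out and between 90.9 and 101.9 CPM in primed wild-type libraries. The sums were between 443.1 and 622.2 CPM in stimulated knock-out and between 436.2 and 532.5 CPM in stimulated wild-type libraries, with Ms4a1 at or near 0 in the cultured groups, and their part in the results was not tested. The haemoglobin genes were at or near 0 in the cultured libraries. Erythroid markers summed to between 16.4 and 18.1 CPM in fresh knock-out libraries and between 114.7 and 200.7 CPM in fresh wild-type libraries, and their part in the fresh comparison was not tested. NK markers summed to between 8582.6 and 10251.4 CPM in NKG2D-stimulated knock-out libraries and between 11305.8 and 13223.5 CPM in NKG2D-stimulated wild-type libraries. The monocyte, macrophage and neutrophil list summed to between 90.8 and 109.3 CPM in the same knock-out libraries and between 49 and 70 CPM in the same wild-type libraries, with Lyz2, S100a8 and S100a9 at 0 in both, and the part of these differences in the results was not tested. The smallest library, primed knock-out replicate 1, had 14772350 reads and 14695 genes detected, where each other library had at least 17877. Primed wild-type replicate 3 stood apart from its group for Acss2, Acss1 and Crat. Several results of the members are given with and without these libraries. Values of the other named genes are given from the fit with both libraries alone.

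Acly mRNA, the deletion target, was the highest or second highest of the 7 per base of transcript in wild type and was low in every knock-out library. In fresh cells it measured 16.0, 15.3 and 25.5 CPM in knock-out and 232, 254.1 and 264.8 CPM in wild type. Primed knock-out cells had 41.4, 38.1 and 48.9 CPM and primed wild-type cells 226.8, 279.6 and 262.4 CPM. After NKG2D the values were 39, 28.2 and 41.9 CPM in knock-out and 193.2, 170.4 and 128.4 CPM in wild type. The genotypes did not overlap in any condition. Over all genes tested, the share without overlap was 27% in fresh, 31.6% in primed and 34.8% in stimulated cells. Relative to the wild-type mean of the same condition, single knock-out libraries held between 6.13% and 10.2% when fresh, between 14.9% and 19.1% when primed and between 17.2% and 25.5% after NKG2D. Values are per gene, so loss of the floxed exon was not measured, and in bulk RNA fewer cells of a kind cannot be told apart from less RNA per cell.

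The Acly response to culture was not the same in the genotypes. Knock-out cells rose with priming, to 225.1% of the fresh knock-out level (95% interval 169.1 to 299.8; log2 fold change 1.17, SE 0.196, edgeR adjusted p = 9.37e-05). In wild type the same step had a log2 fold change of 0.03 (interval -0.36 to 0.43, adjusted p = 0.894). The difference between these responses was 1.14 on the log2 scale (SE 0.271, edgeR adjusted p = 0.0131), and it passed the threshold in all 21 alternatives tried, with adjusted p between 4.16e-06 and 0.0385. Acly fell in wild type from primed to stimulated cells, to 64% of the primed level (log2 fold change -0.64, SE 0.189, edgeR adjusted p = 0.0226). That call was lost without primed wild-type replicate 2 or 3 or without stimulated wild-type replicate 2 or 3, with adjusted p of 0.0771, 0.0513, 0.0572 and 0.102. In knock-out cells the NKG2D step was -0.24 (adjusted p = 0.366), and the genotypes' difference in it, 0.41, did not pass (adjusted p = 0.452).

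**Figure D1:**
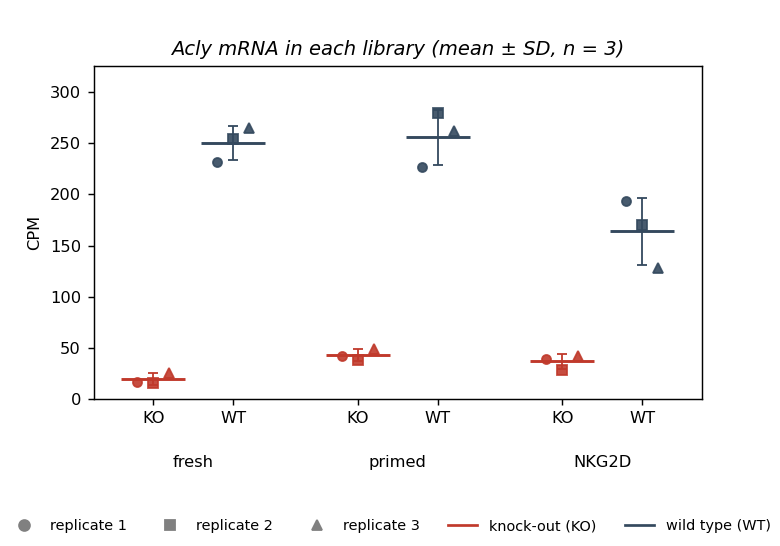
Acly mRNA in CPM (vertical axis) in each of the 18 libraries, knock-out (KO) left of wild type (WT) in each condition; points are replicates, bars the mean and SD of 3. All KO points lie at or below 48.9 CPM and all WT points at or above 128.4 CPM.

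Acss2 and Acss1, the acetyl-CoA synthetases that use acetate, were alike in the order of the genotypes in fresh and stimulated cells. Every fresh knock-out library was below every fresh wild-type library for both. Both genes fell with priming in each genotype. Every stimulated knock-out library was above every stimulated wild-type library. Such separation was common, as the genotypes did not overlap for 27% of all genes tested in fresh cells and 34.8% in stimulated cells. These shares count either order of the genotypes. In primed cells the genotypes overlapped, with log2 fold changes of 0.74 for Acss2 and -0.87 for Acss1, neither past the test. Both lie on chromosome 2 of mm10 in separate places, Acss1 from 150618105 to 150668500 on the minus strand and Acss2 from 155517948 to 155585724 on the plus strand. Their promoter windows from RefSeq (GRCm38.p6, 250 bases before to 50 after the start) are shown because these members shared the order of genotypes in fresh and stimulated cells. Capitals mark the single CCAAT motif, read on the minus strand in Acss2; Acss1 has none.

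Acss1, chr2:150668191-150668490, minus strand: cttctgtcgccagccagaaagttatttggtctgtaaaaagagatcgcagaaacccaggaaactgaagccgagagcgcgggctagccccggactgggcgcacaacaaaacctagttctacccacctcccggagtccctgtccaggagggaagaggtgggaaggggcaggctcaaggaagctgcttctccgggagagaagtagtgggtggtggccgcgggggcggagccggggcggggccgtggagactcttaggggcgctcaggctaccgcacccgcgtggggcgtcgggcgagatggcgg

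Acss2, chr2:155517793-155518092, plus strand: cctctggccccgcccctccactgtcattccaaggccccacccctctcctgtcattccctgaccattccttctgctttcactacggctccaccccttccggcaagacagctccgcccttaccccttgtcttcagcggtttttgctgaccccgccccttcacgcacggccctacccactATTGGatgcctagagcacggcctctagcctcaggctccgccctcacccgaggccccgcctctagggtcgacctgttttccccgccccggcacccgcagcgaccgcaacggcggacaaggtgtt

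Promoter windows were found for 6 of the 7 members. Searched on both strands, the sterol response element form TCACNCCAC was in none of the 6 and is in 1.24% of 32851 windows. The E-box CACGTG was in Slc25a1 alone and is in 7.15% of windows. CCAAT was in the windows of Acly, Acss2, Slc25a1 and Cs, not in those of Acss1 and Aco1, and is in 37.4% of windows. These motifs share no letters that would make one contain another.

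For Acss2, fresh knock-out cells had 45.4, 34.4 and 32.6 CPM and fresh wild-type cells 67.2, 77.9 and 80.0 CPM. Priming left 17.8, 16.5 and 8.52 CPM in knock-out and 4.82, 5.02 and 15.3 CPM in wild type. After NKG2D the values were 15.4, 39.2 and 30.9 CPM in knock-out and 9.45, 10.1 and 10.8 CPM in wild type. The genotypes were apart in fresh cells and after NKG2D, and in opposite order. Primed cells overlapped, as wild-type replicate 3 (15.3 CPM) lay above knock-out replicate 3 (8.52 CPM). The genotype difference in stimulated cells passed the test, at 281.4% of the wild-type level (95% interval 159.5 to 496.4; log2 fold change 1.49, SE 0.388, edgeR adjusted p = 0.0128). It was 1.17 with an adjusted p of 0.0708 by edgeR without stimulated knock-out replicate 2. In fresh cells the log2 fold change of -1 (SE 0.376, interval -1.79 to -0.21) did not pass, with an edgeR adjusted p of 0.272. Fitted on the fresh libraries alone, it was -1.02 with an edgeR adjusted p of 0.00477. Primed cells gave 0.74 (edgeR adjusted p = 0.208), which became 1.53 (adjusted p = 0.00542) without primed wild-type replicate 3 and 1.36 (adjusted p = 0.017) with primed knock-out replicate 1 left out as well.

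Priming lowered Acss2 in both genotypes. The knock-out kept 38% of its fresh level (log2 fold change -1.40, SE 0.386, edgeR adjusted p = 0.00653), and the wild type kept 11.3% (log2 fold change -3.14, SE 0.408, adjusted p = 5.05e-06; -3.92 without primed wild-type replicate 3). The difference of 1.74 (SE 0.542) had an edgeR adjusted p of 0.0484. It was lost in 13 of 21 alternatives, among them the omission of any 1 fresh library, of primed knock-out replicate 1 or 2 and of primed wild-type replicate 1 or 2, where adjusted p lay between 0.0564 and 0.117. Without primed wild-type replicate 3 it was 2.53, with an adjusted p of 0.00142. The NKG2D step gave 1.00 in knock-out (adjusted p = 0.052) and 0.25 in wild type (adjusted p = 0.707; 1.04 with adjusted p = 0.0438 without primed wild-type replicate 3).

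Some Acss2 reads may belong to its neighbours. Its exons overlap those of Gss and Ggt7, both on the opposite strand, at a mean of 551.7 and 86.6 reads per library, and the sources do not say whether strand was used in counting. Reads of these genes therefore cannot be told apart with certainty, and 7 of the 18 Acss2 values were not whole numbers. Gss, the glutathione synthetase gene, had genotype log2 fold changes of 0.40, -0.27 and -0.17 in fresh, primed and stimulated cells, none past the test. With NKG2D, Gss rose by 0.80 in knock-out (edgeR adjusted p = 0.000432) and by 0.69 in wild type (adjusted p = 0.00266), the same direction as the Acss2 steps. With priming, where Acss2 fell in both genotypes, Gss had -0.10 in knock-out (edgeR adjusted p = 0.593) and 0.58 in wild type (adjusted p = 0.0033). The genotypes' difference in the priming step was -0.68 for Gss (edgeR adjusted p = 0.0464) and 1.74 for Acss2. The genotype log2 fold changes of Ggt7 were 0.09, 0.58 and -0.03, none past the test. Priming raised Ggt7 by 1.48 in knock-out (edgeR adjusted p = 3.34e-05) and by 0.99 in wild type (adjusted p = 0.00132). The part of these genes' reads in the Acss2 values was not tested.

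Acss1 had the largest fold rise of the 7 on NKG2D stimulation, in knock-out cells. Fresh knock-out cells had 12.6, 9.79 and 12.7 CPM and fresh wild-type cells 33.8, 32.8 and 20.7 CPM. In primed cells it was 4.96, 3.02 and 2.5 CPM in knock-out and 5.29, 3.22 and 10.1 CPM in wild type. After NKG2D it was 14.3, 20.3 and 20.7 CPM in knock-out and 9.82, 10.9 and 12.4 CPM in wild type. As with Acss2, fresh knock-out libraries lay below all wild-type ones, stimulated knock-out libraries lay above them, and primed ones overlapped. No genotype difference of Acss1 passed in the fit over all libraries, with log2 fold changes of -1.31 (SE 0.318, adjusted p = 0.204), -0.87 (adjusted p = 0.095) and 0.74 (adjusted p = 0.117) in fresh, primed and stimulated cells. Fitted on the libraries compared alone, the fresh value was -1.34 (edgeR adjusted p = 0.00585) and the stimulated one 0.74 (adjusted p = 0.0336). The primed value was -1.17 (adjusted p = 0.0492) without primed knock-out replicate 1, -1.16 (adjusted p = 0.0291) without primed wild-type replicate 2 and -0.32 (adjusted p = 0.523) without primed wild-type replicate 3. Primed knock-out libraries held only 74, 68 and 52 Acss1 reads. Acss1 exons overlap those of E130215H24Rik on the opposite strand, which had a mean of 24.1 reads per library. The part of its reads in the Acss1 values was not tested.

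Priming lowered Acss1 to 29.5% of the fresh level in knock-out (log2 fold change -1.76, edgeR adjusted p = 0.000385) and to 21.6% in wild type (-2.21, adjusted p = 2.31e-05), and the difference of 0.45 did not pass (adjusted p = 0.584). Acss1 rose from primed to stimulated cells in knock-out, to 534.6% of the primed level (95% interval 323.2 to 884.5). Its log2 fold change was 2.42 (SE 0.344, edgeR adjusted p = 3.51e-05). In wild type the step was 0.81 (SE 0.323, adjusted p = 0.0906), or 1.37 (adjusted p = 0.00431) without primed wild-type replicate 3. The difference of 1.61 between genotypes (SE 0.466) had an edgeR adjusted p of 0.0666. It passed without primed knock-out replicate 1, at 1.92 (adjusted p = 0.0361), or without primed wild-type replicate 2, at 1.91 (adjusted p = 0.0231), and was 1.06 without primed wild-type replicate 3.

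Whether the genotype difference itself changed between fresh and NKG2D-stimulated cells was tested with a contrast chosen after these values were seen. Its fold change compares no primed library. The fit over all 18 libraries still lets the primed ones enter the spread, and so the SE and p. Of the 7 members, 3 passed, all upward, against 16.2% of all 14864 genes tested, 7.74% of them upward. The change was 2.49 on the log2 scale for Acss2 (SE 0.54, edgeR adjusted p = 0.00555) and 2.06 for Acss1 (SE 0.449, adjusted p = 0.00584). For Acly, the deletion target, it was 1.54 (SE 0.271, adjusted p = 0.0014). All 3 kept their call in each of 20 alternatives, with Acss2 between 2.18 and 2.79 and Acss1 between 1.93 and 2.25. These alternatives refit the same libraries, so they cannot correct for a contrast chosen after the values were seen. Cs had -0.46 (edgeR adjusted p = 0.129), and passed downward with limma voom (-0.58, adjusted p = 0.00164) and, by edgeR, without stimulated knock-out replicate 1 (-0.66, adjusted p = 0.0143). Slc25a1, Aco1 and Crat had between 0.16 and 0.43, none past the test. This contrast and that of the priming response share the fresh libraries.

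**Figure D2:**
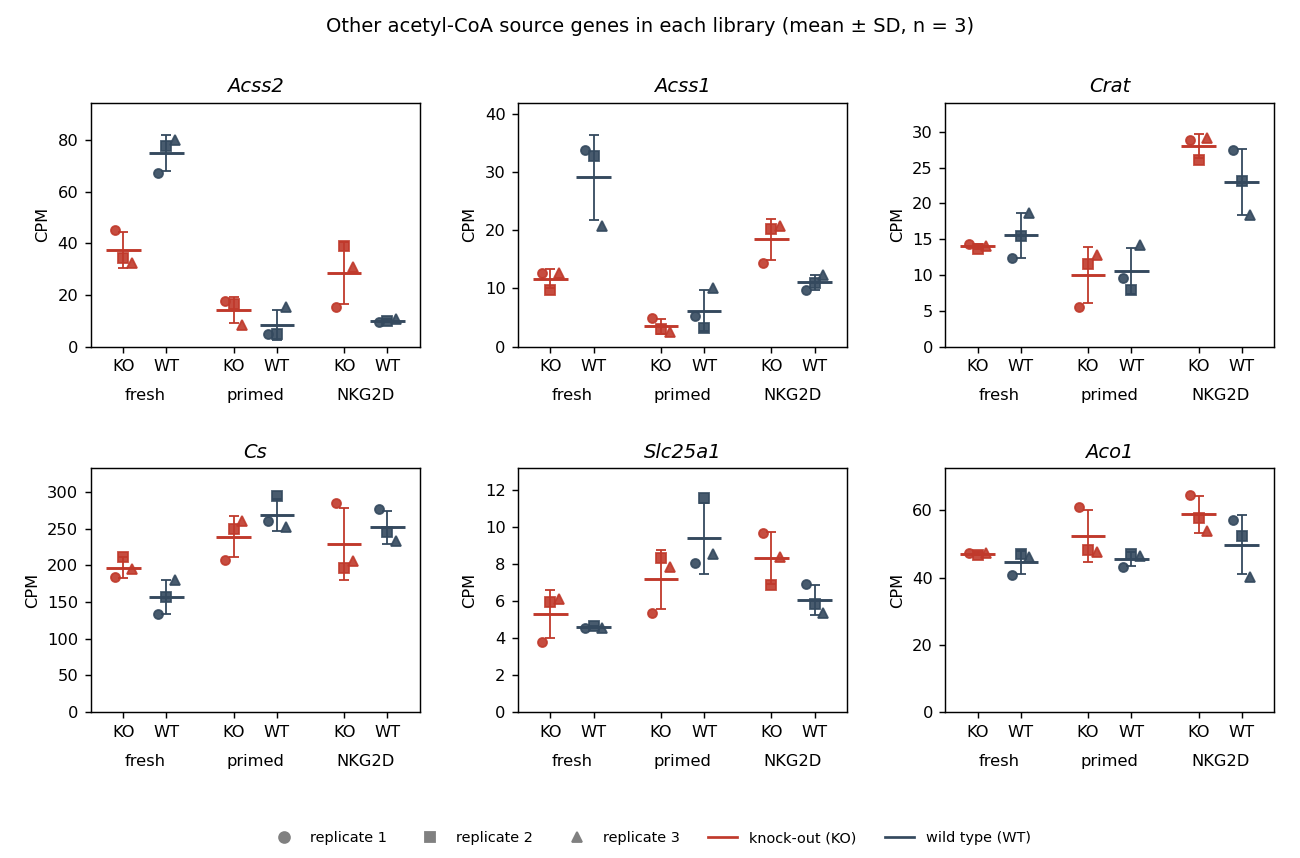
CPM (vertical axes, each from 0) of the other 6 genes in each library, knock-out (KO) left of wild type (WT); points are replicates, bars mean and SD of 3. Acss2 and Acss1 are lower in KO than in WT when fresh and higher after NKG2D, while Aco1 stays between 40.1 and 64.6 CPM.

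Cs and Slc25a1, which make and export the citrate that Acly uses, both rose with priming in wild type. Fresh cells held 184.4, 212 and 194.5 CPM of Cs in knock-out and 133.9, 156.8 and 179.7 CPM in wild type. The primed values were 207.3, 248.9 and 260.5 CPM in knock-out and 260.6, 293.8 and 251.6 CPM in wild type. After NKG2D, Cs was at 285.6, 196.9 and 205.5 CPM in knock-out and 276.7, 244.9 and 233.6 CPM in wild type. Fresh knock-out libraries were just above the wild-type ones without overlap, and cultured libraries overlapped. In fresh cells 27% of all genes tested had no overlap between genotypes. Priming raised Cs in wild type to 171.4% of the fresh level (log2 fold change 0.78, SE 0.142, edgeR adjusted p = 0.000187) and gave 0.28 in knock-out (adjusted p = 0.113). Without primed knock-out replicate 1 the knock-out value was 0.43 (adjusted p = 0.0281). The difference of -0.50 (interval -0.92 to -0.08) did not pass, with an edgeR adjusted p of 0.12. By edgeR none of the Cs genotype differences passed, at 0.33, -0.17 and -0.13 with adjusted p of 0.338, 0.446 and 0.571 in fresh, primed and stimulated cells. Limma voom called Cs higher in fresh knock-out cells (0.32, adjusted p = 0.0301) and lower in stimulated ones (-0.25, adjusted p = 0.0271).

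Slc25a1 was the member of lowest level in fresh cells. It measured 3.81, 5.95 and 6.14 CPM in fresh knock-out and 4.57, 4.65 and 4.56 CPM in fresh wild-type libraries. Priming brought 5.36, 8.34 and 7.84 CPM in knock-out and 8.07, 11.6 and 8.54 CPM in wild type, and NKG2D 9.69, 6.88 and 8.40 CPM in knock-out and 6.94, 5.87 and 5.38 CPM in wild type. Only the wild type lay without overlap above its fresh libraries once primed, and 64.1% of all genes tested had no overlap in that step of the wild type. There priming raised it to 204.6% (log2 fold change 1.03, SE 0.229, edgeR adjusted p = 0.00107), while the knock-out step was 0.44 (adjusted p = 0.12; 0.67 with adjusted p = 0.0232 without primed knock-out replicate 1). The genotypes' difference in this step, -0.59, did not pass (adjusted p = 0.257). NKG2D gave 0.21 in knock-out (adjusted p = 0.507) and -0.63 in wild type (adjusted p = 0.0596) by edgeR, and the difference of 0.84 did not pass (adjusted p = 0.168). The wild-type step did pass with DESeq2 (adjusted p = 0.0375) and limma voom (adjusted p = 0.0108). Genotype differences of 0.21, -0.38 and 0.45 in fresh, primed and stimulated cells did not pass by edgeR, and limma voom called the stimulated one (0.43, adjusted p = 0.0491).

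Aco1 was the most even member. It lay between 46.6 and 47.4 CPM in fresh knock-out and between 40.7 and 46.9 CPM in fresh wild-type libraries. Primed cells had 47.6 to 61.1 CPM in knock-out and 43.0 to 46.9 CPM in wild type, and stimulated cells 53.8 to 64.6 CPM in knock-out and 40.1 to 57.0 CPM in wild type. Knock-out means were above wild-type means in each condition, by less than the test could call, with log2 fold changes of 0.08, 0.20 and 0.24 and edgeR adjusted p of 0.853, 0.321 and 0.232. The intervals for knock-out as a share of wild type ran from 87.3 to 128.3% when fresh, 94.8 to 139.2% when primed and 97.4 to 142.9% after NKG2D. None of its responses to priming or NKG2D passed.

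Crat rose with NKG2D in both genotypes. It was at 14.3, 13.6 and 14.1 CPM in fresh knock-out and 12.4, 15.5 and 18.7 CPM in fresh wild-type libraries. Primed libraries had 5.5, 11.6 and 12.8 CPM in knock-out and 9.63, 7.91 and 14.2 CPM in wild type. After NKG2D there were 28.8, 26.1 and 29.2 CPM in knock-out and 27.5, 23.1 and 18.4 CPM in wild type. Every stimulated library was above every primed library of its genotype, and the genotypes overlapped in each condition. Stimulated and primed libraries did not overlap for 43.1% of all genes tested in knock-out and 39.3% in wild type. From primed to stimulated cells Crat rose in knock-out to 278.6% of the primed level (log2 fold change 1.48, SE 0.264, edgeR adjusted p = 0.000319). The knock-out step was 1.17 without primed knock-out replicate 1. In wild type Crat rose to 216.5% (1.11, SE 0.261, edgeR adjusted p = 0.00542), and the step was 1.39 without primed wild-type replicate 3. The difference of 0.36 (interval -0.41 to 1.14) did not pass (adjusted p = 0.656). Genotype log2 fold changes of -0.15, -0.08 and 0.28 in fresh, primed and stimulated cells did not pass. The primed value turned to 0.22 without primed knock-out replicate 1, to 0.19 without primed wild-type replicate 3 and to 0.49 without both, none past the test. The priming steps of -0.48 in knock-out and -0.55 in wild type did not pass (adjusted p = 0.142 and 0.0876). Without primed knock-out replicate 1 the knock-out step was -0.14, and without primed wild-type replicate 3 the wild-type step was -0.81 (edgeR adjusted p = 0.0199). Crat exons overlap those of Dolpp1 on the opposite strand, which had a mean of 553.1 reads per library. Dolpp1 rose by 0.69 with NKG2D in knock-out (edgeR adjusted p = 0.00477), had 0.24 in wild type (adjusted p = 0.371), and was lower in primed knock-out than in primed wild-type cells (-0.58, adjusted p = 0.03). The part of its reads in the Crat values was not tested.

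The counts of members past the edgeR threshold between genotypes were as follows. In fresh cells 1 passed, Acly, against 0.0673% of all genes. In primed cells it was again Acly alone, against 15.5% of genes. After NKG2D 2 passed, Acly downward and Acss2 upward, against 18.2% of genes. Apart from the deleted gene the share of members called was thus 0 of 6, 0 of 6 and 1 of 6, near or below the share of all genes in the cultured cells. Other settings called up to 4 of the 7 in fresh cells and up to 5 after NKG2D. Those highest counts were by limma voom. Over all genes, voom called 1900 in fresh cells and 6256 after NKG2D, against 10 and 2708 by edgeR. A p that misses the threshold does not show that a gene did not differ.

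**Figure D3:**
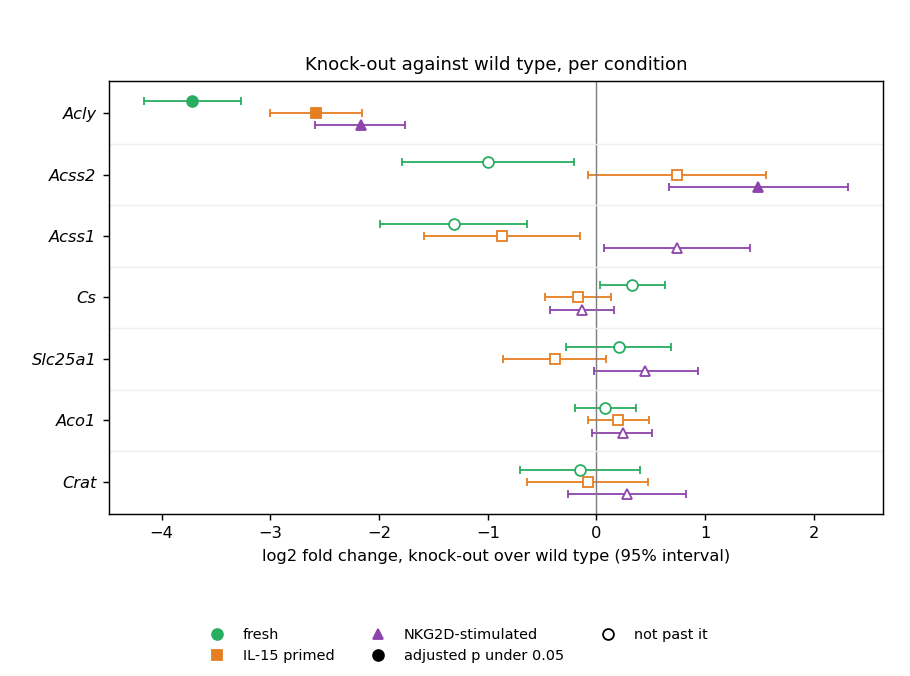
Log2 fold change of knock-out over wild type (horizontal axis) for the 7 genes in each condition, with 95% intervals; filled symbols have an adjusted p under 0.05. Acly is below 0 in all 3 conditions, and Acss2 and Acss1 change side between fresh (-1 and -1.31) and NKG2D (1.49 and 0.74).

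More members responded to culture, as did many genes. Priming moved 3 members in knock-out (Acly up, Acss1 and Acss2 down) against 48.7% of genes, and 4 in wild type (Cs and Slc25a1 up, Acss1 and Acss2 down) against 53.7% of genes. NKG2D moved 2 in knock-out (Acss1 and Crat up) against 35.3% of genes, and 2 in wild type (Crat up, Acly down) against 19.9%. The priming response differed between genotypes for 2 members, Acly and Acss2, against 10.5% of genes. The NKG2D response differed for 0 of 7 by edgeR, against 3.55% of genes (221 higher and 307 lower); DESeq2 and limma voom each called 1, Acss1. At an unadjusted edgeR threshold of 0.05 the count in that comparison was 2, Acss1 and Slc25a1, against 18.2% of genes.

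**Figure D4:**
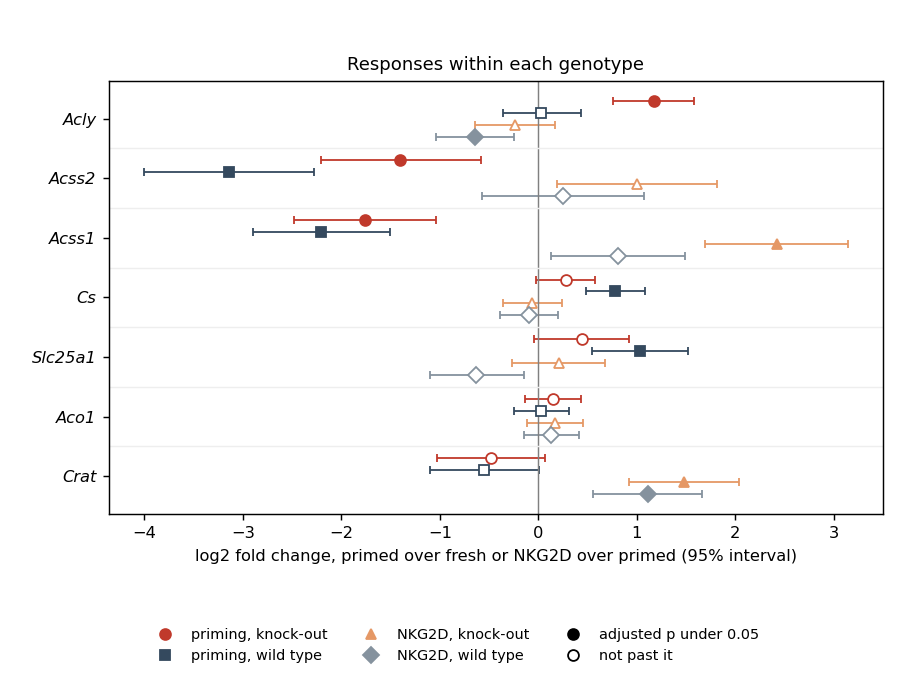
Log2 fold change (horizontal axis, 95% interval) of the 7 genes with priming (primed over fresh) and with NKG2D (NKG2D over primed) in each genotype; filled symbols have an adjusted p under 0.05. Acss2 and Acss1 fall with priming in both genotypes, and Acly rises with priming in knock-out (1.17) with 0.03 in wild type.

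Set against transcript length, the members differed widely in level. Divided by the length of the principal transcript, fresh wild-type means were 57.0 CPM per kb for Acly, 53.6 for Cs, 25.6 for Acss2, 11.6 for Aco1, 8.04 for Acss1, 3.68 for Crat and 2.76 for Slc25a1. The fresh knock-out means were 4.31 CPM per kb for Acly, 67.3 for Cs, 12.8 for Acss2 and 3.23 for Acss1. After NKG2D the level of Acss2 per kb was 9.72 in knock-out and 3.45 in wild type, and that of Acly 8.27 in knock-out and 37.3 in wild type. In stimulated knock-out libraries Acss2 had 5.27, 13.4 and 10.5 CPM per kb and Acly 8.87, 6.41 and 9.53, so the levels overlapped and replicate 1 had more Acly. Primed knock-out means were 4.87 CPM per kb for Acss2 and 9.74 for Acly. Across the 6 groups Acly stood highest in primed and fresh wild type, which overlapped, then in stimulated wild type, apart from these and from all knock-out groups. For Acss2 the fresh wild type was apart at the top, and each later neighbour in the order (fresh, stimulated and primed knock-out, then stimulated and primed wild type) overlapped the next. For Acss1 the fresh wild type and the stimulated knock-out were apart from their neighbours, and the other 4 groups overlapped in turn.

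Genes of the routes into and out of acetyl-CoA were read from the same fit, as lists. Of 14 genes for mitochondrial pyruvate entry and citrate making, 0 passed between genotypes in fresh cells. Relative to wild type, 1 was higher and 1 lower in primed knock-out cells (14.3% called, all genes 15.5%; median log2 fold change 0.07, all genes -0.02), and 1 was higher and 1 lower in stimulated knock-out cells (14.3% called, all genes 18.2%; median -0.10, all genes 0.03). Pcx, which makes oxaloacetate from pyruvate, was at 7.27 ± 2.15 CPM in primed knock-out and 1.84 ± 0.388 CPM in primed wild type (SD, n = 3 libraries each; log2 fold change 1.97, edgeR adjusted p = 0.00554). Idh3b, a subunit of the mitochondrial NAD-linked isocitrate dehydrogenase, had a log2 fold change of -0.64 between genotypes in primed cells (adjusted p = 0.00652), and the malate dehydrogenase gene Mdh2 one of -0.43 in stimulated cells (adjusted p = 0.00589).

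Idh2, the mitochondrial NADP-linked isocitrate dehydrogenase, had its libraries on the same sides as Acss2 and Acss1 in fresh and stimulated cells. Of all genes tested, 27% and 34.8% had no overlap between genotypes in these conditions. These shares count either order of the genotypes, and the share of genes with both orders in turn was not counted. It ranged from 1.35 to 3.81 CPM in fresh knock-out and from 9.16 to 10.6 CPM in fresh wild-type libraries. Primed libraries ranged from 1.64 to 5.43 CPM in knock-out and from 0.873 to 9.62 CPM in wild type, where the SD was 4.92 CPM. After NKG2D it ranged from 2.77 to 13.3 CPM in knock-out and from 0.983 to 1.29 CPM in wild type. The log2 fold change was -2.10 in fresh cells (edgeR adjusted p = 0.241), 0.02 in primed cells (adjusted p = 0.991) and 2.99 in stimulated cells (SE 0.763, adjusted p = 0.0115). The change of its genotype difference from fresh to stimulated cells was 5.08 (SE 1.05, edgeR adjusted p = 0.00419). That contrast was chosen after the values were seen, and Idh2 was set beside Acss2 and Acss1 for the shared order. Its p is therefore given as a description.

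Among cytosolic users of citrate and acetyl-CoA, 14 of 17 genes were tested. Between genotypes none passed in fresh cells. In primed knock-out cells 3 were higher and 0 lower (21.4% called, all genes 15.5%, median 0.02, all genes -0.02). In stimulated knock-out cells 2 were higher and 1 lower (21.4% called, all genes 18.2%, median 0.21, all genes 0.03). Hmgcs1, which starts the sterol pathway from acetyl-CoA, was at 874.7 ± 28.9 CPM in primed knock-out and 325.9 ± 72.1 CPM in primed wild type (SD, n = 3 libraries each; log2 fold change 1.42, edgeR adjusted p = 3e-06), and was 0.56 higher on the log2 scale in stimulated knock-out than in stimulated wild-type cells (adjusted p = 0.00673). Fasn, fatty acid synthase, averaged 251 ± 39.2 CPM in primed knock-out and 105.6 ± 5.85 CPM in primed wild type (1.25, adjusted p = 0.000508), with a genotype difference of 0.56 in stimulated cells (adjusted p = 0.0669). Acat2, the cytosolic acetoacetyl-CoA thiolase, was 0.63 higher in stimulated knock-out than in stimulated wild-type cells (adjusted p = 0.000743), and the N-terminal acetyltransferase gene Naa10 had -0.46 there (adjusted p = 0.0366). From primed to stimulated cells Acat2 fell in both genotypes. The step was -1.71 in knock-out (edgeR adjusted p = 5.73e-09) and -1.56 in wild type (adjusted p = 5.72e-08). Acaca, acetyl-CoA carboxylase 1, had genotype differences of 0.04, 0.08 and -0.57 in fresh, primed and stimulated cells (adjusted p = 0.0505 in the last), and Idh1, the cytosolic NADP-linked isocitrate dehydrogenase, had -0.08, 0.30 and 0.43 with none past the test.

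Acly, Acss2 and Slc25a1 are also known as targets of the sterol-regulated SREBP factors, of which Hmgcs1 is a standard example. Of 18 such genes, 0 passed between genotypes in fresh cells, 10 were higher and 0 lower in primed knock-out cells (55.6% called, all genes 15.5%; median 0.62), and 10 were higher and 0 lower in stimulated knock-out cells (55.6% called, all genes 18.2%; median 0.56). Idi1, an enzyme of isoprenoid synthesis, averaged 545.9 ± 5.16 CPM in primed knock-out and 165.6 ± 27.5 CPM in primed wild type (SD, n = 3 libraries each; 1.72, edgeR adjusted p = 3.82e-07), with a genotype difference of 0.99 in stimulated cells (adjusted p = 8.89e-05). With priming, 16 of the 18 rose and 0 fell in each genotype, with a median of 3.21 in knock-out and 2.70 in wild type. Over all genes tested, 23% rose in knock-out and 26.5% in wild type, with a median of -0.06 in each. The members beside this list had 1.17 in knock-out and 0.03 in wild type (Acly), 0.44 and 1.03 (Slc25a1), and -1.40 and -3.14 (Acss2). Of these, the Acly rise in knock-out, the Slc25a1 rise in wild type and both Acss2 falls passed. With NKG2D, 0 rose and 16 fell in knock-out (median -1.73) and 0 rose and 14 fell in wild type (median -1.55). Over all genes tested, 16.9% fell in knock-out (median 0.04) and 10.7% in wild type (median -0.01). The members had -0.24 in knock-out and -0.64 in wild type (Acly), 0.21 and -0.63 (Slc25a1), and 1.00 and 0.25 (Acss2), of which the Acly fall in wild type passed. The list and the members were chosen with results of these data known, so these counts are a description. Hmgcs1 and Fasn were in this list and among the cytosolic users above, so they count in both.

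**Figure D5:**
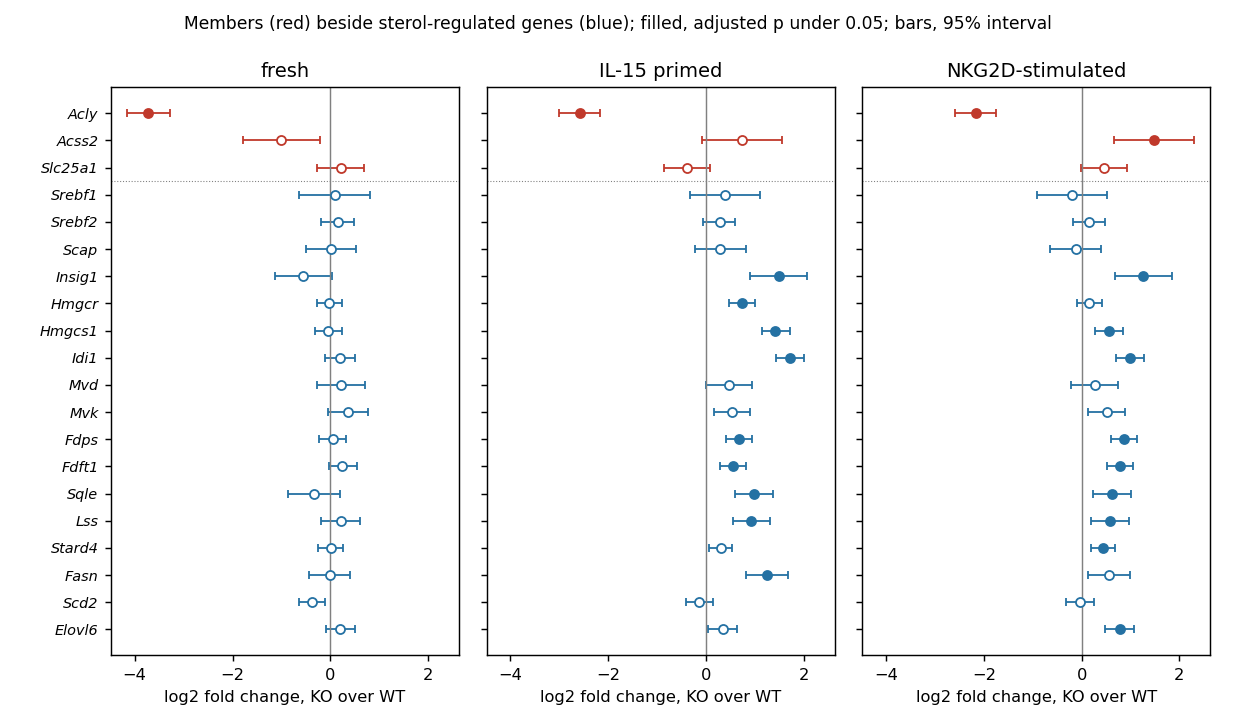
Log2 fold change of knock-out over wild type (horizontal axis, 95% interval) in each condition for Acly, Acss2 and Slc25a1 (red) and genes of the sterol-regulated list (blue); filled symbols have an adjusted p under 0.05. Idi1 and Hmgcs1 lie past the test above 0 in primed cells (1.72 and 1.42) and after NKG2D (0.99 and 0.56), and no blue symbol is filled in fresh cells.

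Of 15 genes that handle acetate and acyl groups, 11 were tested, 0 passed between genotypes in fresh cells, 1 was higher and 1 lower in primed knock-out cells (18.2% called, all genes 15.5%; median -0.20), and 1 was higher and 3 lower in stimulated knock-out cells (36.4% called, all genes 18.2%; median 0.17). Slc25a20, the mitochondrial carnitine-acylcarnitine carrier, had -0.92 in primed knock-out against wild-type cells (edgeR adjusted p = 0.00467). Cpt1a, which loads long-chain acyl groups on carnitine, had 0.44 there (adjusted p = 0.0212). Slc16a1, a carrier of lactate, pyruvate and acetate, was at 3.16 ± 0.668 CPM in stimulated knock-out and 6.47 ± 0.863 CPM in stimulated wild type (SD, n = 3 libraries each; -1.04, adjusted p = 0.00172), and the peroxisomal acyl-transferase gene Crot was 0.34 higher there (adjusted p = 0.0296). Beside Aco1, of 7 iron genes 0 passed between genotypes in fresh cells. In primed knock-out cells 1 was higher, the ferritin light chain gene Ftl1 (0.41, edgeR adjusted p = 0.0488), and in stimulated knock-out cells 1 was lower. That was 14.3% called each time, against 15.5% of all genes in primed and 18.2% in stimulated cells. The lower one was Tfrc, the transferrin receptor, at 13.2 ± 1 CPM in stimulated knock-out and 35.7 ± 12.3 CPM in stimulated wild type (SD, n = 3 libraries each; -1.43, adjusted p = 0.000116). Ireb2, the other iron regulatory protein, had -0.24, 0.01 and -0.36 with none past the test.

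The genes most like each member in course were ranked by Pearson correlation of log2 CPM among 7626 genes of higher level, as a description. Points are the 18 libraries, which share their 6 groups. Acss2 was closest to Srpk2 (r = 0.979), Usp33 (0.978) and Fig4 (0.974). Acss1 was closest to Chic2 (0.923), Ube2r2 (0.918) and Kmt2e (0.911), and Crat to Slc43a2 (0.927) and Ddit3 (0.924). Cs ran closest to Got2 (0.966), the mitochondrial aspartate aminotransferase gene, then to Psmd13 (0.963) and Tmed3 (0.951). Slc25a1 had Foxred1 (0.891), Pold2 (0.88) and Narf (0.861), and Aco1, which varied little, had Ppm1f (0.819), Aar2 (0.802) and Bckdk (0.786). For Acly over the 9 wild-type libraries the closest were Eif4g2 (0.971), Ppip5k2 (0.963) and Dcun1d2 (0.957).

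The authors' deposited table of fresh cells gave Acss2 a log2 fold change of -1.01 (adjusted p = 0.00235), Acss1 -1.33 (adjusted p = 0.000503) and Cs 0.32 (adjusted p = 0.00662), where 14.3% of its 13617 genes were past 0.05. In the authors' deposited table of primed cells Acss2 had 1.19 (adjusted p = 0.0413) and Acss1 -0.75 (adjusted p = 0.243), among 31.2% of 13604 genes past 0.05. In the authors' deposited table of stimulated cells Acss2 had 1.64 (adjusted p = 2.56e-05), Acss1 0.88 (adjusted p = 0.00211) and Cs -0.26 (adjusted p = 0.00484), among 45.5% of 13590 genes. The authors' deposited tables call more genes in each condition than the fit over all libraries here, and of the 7 members Crat in primed cells has the opposite sign, at 0.32 in the authors' deposited table and -0.08 in the fit.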

How the data were processed

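The authors mapped reads to mm10, and bcl2fastq, DRAGEN and edgeR were used, per the submitters' processing notes; no versions or settings are in the sources used. RNA was extracted with an RNeasy kit and libraries were made with a SMARTer kit, per the labels' protocols. The authors deposited expected counts (estimated reads per gene, unscaled); 30% of values above 0 are not whole, so counts were rounded. The table had 55774 rows, 168 identifiers were repeated with identical values, and 1 copy of each was kept. The authors also deposited log2 fold changes with p-values per condition, per the file headers, used for comparison alone; 54 per-library columns in those tables were not used.

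The quasi-likelihood test of edgeR 4.0.16 (R 4.3.3) was fitted to all 18 libraries with TMM scaling and a mean for each of the 6 groups, on the 14864 genes that its expression filter kept. Residual degrees of freedom were 12 and the common biological coefficient of variation 0.234. The Benjamini-Hochberg adjustment ran over all genes of a comparison, and the threshold was 0.05. The script was tested on simulated data. Alternatives used DESeq2 1.42.0, limma 3.58.1 (voom), RLE factors, other filters, blocks, the libraries compared alone, and left-out libraries. Nothing in the labels says that replicates came from separate mice; p-values cover the spread between these libraries only, which may be technical. Reads carry no molecular identifiers, as far as the labels say.

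The members and lists were chosen with earlier results of these data known. Named were all 7 members and the riser and faller of smallest adjusted p in each list and genotype comparison. Idh1, Acaca, Fasn, Hmgcs1, Tfrc and Ireb2 were named as well. A few other genes named by this rule are left out here. Gss, Dolpp1, Ggt7 and E130215H24Rik were added as overlapping genes. Positions and principal transcripts are from GENCODE M21 (GRCm38).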

Additional observations from a re-analysis of the deposited data

Results flagged for a closer look

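Acly and Acss2 were picked out because their response to priming differed between genotypes by a direct test. The difference, knock-out response minus wild-type response on the log2 scale, was 1.14 for Acly and 1.74 for Acss2. The Acss2 value was lost in most alternatives, as given with its values above, and NK and ILC1 markers were present in every group.

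Acly, Acss1 and Acss2 were picked out because their genotype difference changed between fresh and NKG2D-stimulated cells, by 1.54, 2.06 and 2.49 on the log2 scale. That contrast was chosen after the values were seen. T-cell markers summed to between 26 and 27 CPM in stimulated knock-out libraries and between 40.7 and 65.7 CPM in stimulated wild-type libraries, with Cd8a at 0 in both, and erythroid markers differed in fresh cells; their part in the result was not tested.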

How the results depend on the processing

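No value past the threshold changed sign, but some below it did, among them these: the Crat genotype difference in primed cells (-0.08) was 0.49 and that in the NKG2D response (0.36) was -0.20 without primed wild-type replicate 3 and primed knock-out replicate 1 together, and the Acss2 genotype difference in the NKG2D response (0.75) was -0.04 without primed wild-type replicate 3. Acly passed in each genotype comparison under every alternative run. The count of members called between genotypes, 1 in fresh cells, was 2 with DESeq2, 4 with limma voom, 3 with no filter on low counts and 3 with only the libraries compared. In primed cells (1) it was 2 with voom, 3 with no filter, 2 without these libraries together (an alternative chosen after seeing the data), and 1 to 2 when single libraries were left out. After NKG2D (2) it was 5 with voom and 1 to 2 with single libraries left out. For priming in knock-out (3) it was 5 with voom, 5 without those libraries together, and 3 to 5. For the NKG2D response it was 4 with voom in knock-out (2), and in wild type (2) 4 with DESeq2, 4 with voom, 5 without those libraries together, and 1 to 3 with single libraries left out. For the genotype difference in priming (2) it was 1 with only the libraries compared and 1 to 2 with single libraries left out; for that in the NKG2D response (0) it was 1 with DESeq2, 1 with voom, 1 with no filter, and 0 to 1. The cause was not tested.

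With the replicate number as a block, the genotype difference in priming had 1 member called, as it had with a block within genotype, because Acss2 missed (adjusted p = 0.0632 and 0.052); the block changed no other count of members by more than 1.5 times. Deviations of same-numbered libraries were weakly correlated at most, from -0.15 to 0.13, and in no comparison were all 3 above 0.1. In priming of knock-out cells all 3 were positive (0.04 to 0.12), and 6 of 6 libraries correlated best with their own number. The numbers were not taken to pair the samples, though a pairing in that comparison is not excluded. Genotype comparisons cannot be had from a block within genotype.

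Over all genes, counts ranged from 5 to 1900 in the fresh genotype comparison (10 in the fit reported), from 1128 to 4214 in primed cells (2307), from 1643 to 6256 after NKG2D (2708), from 3450 to 6742 for NKG2D in knock-out (5248), from 1996 to 5295 in wild type (2954), from 842 to 4157 for the difference in priming (1559), from 203 to 2114 for that in NKG2D (528) and from 1495 to 5691 for that from fresh to NKG2D (2411). The highest count of each range was by limma voom, so the higher member counts by voom stand beside more genes called in all. The stricter filter dropped Slc25a1.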
